A study of Mus musculus with 51 samples.

Results

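A set of 10 genes whose maternal copy is known to be silenced by histone methylation rather than by DNA methylation was followed through mouse preimplantation development in fertilised and in cloned embryos. They, Gab1, Slc38a4, Sfmbt2, Mbnl2, Enc1, Etv6, Tle3, Jade1, Smoc1 and Runx1, were taken by exact gene symbol on the array platform, and they have 32 of the 34958 probe sets that carry a single symbol. Each gene was represented by its probe set with the largest standard deviation over all 51 arrays, as were all 18194 genes tested. The study hybridised RNA of single oocytes and single embryos to Affymetrix arrays, 1 array per oocyte or embryo. The material was metaphase II (MII) oocytes of strain B6D2F1 (n = 3), embryos from in vitro fertilisation (IVF) of B6D2F1 oocytes with B6D2F1 sperm (n = 3 at each stage), and clones made by transfer of a Sertoli cell nucleus of strain B6CBF1 into a B6D2F1 oocyte (n = 5 at each stage). Embryos were cultured in KSOM medium and collected at the 1-cell, 2-cell, 4-cell, 8-cell, morula and blastocyst stages, that is 16, 32, 48, 62, 72 and 84 hours after sperm addition or activation. The clones differ from the IVF embryos both in the origin of the nucleus and in the strain of the nuclear donor, and these cannot be told apart here. They also differed in Y-linked signal: of the embryos from the 2-cell stage on, 7 of 15 from IVF and 1 of 25 clones had a value of Eif2s3y, a Y-linked gene, below -5, as the MII oocytes did. The part of sex in the differences below was not tested.

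Trimethylation of lysine 27 on histone H3 (H3K27me3) is laid down by Polycomb repressive complexes and marks silent chromatin. In the growing oocyte it covers some genes that carry no DNA methylation there, and after fertilisation it keeps the maternal copy of those genes silent, so that the preimplantation embryo transcribes them from the paternal copy. A somatic nucleus lacks this oocyte mark, and loss of the imprint, with transcription from both copies, is known from cloned embryos. The arrays measured total RNA of each gene and did not separate the parental copies.

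Values are the authors' log2 values after robust multi-array averaging (RMA), with each probe set set to 0 at or near its median over the 51 arrays. A value is therefore a distance from the gene's own midpoint and holds no absolute level, so that values of different genes cannot be compared as levels. Base 2 was read from the largest range of a probe set, 13.8, which exceeds the 11.1 that natural logarithms of scanner intensities allow. A gene at the bottom of its range may have no signal at all, and a difference from such a group depends on where that bottom lies. Since each array holds a whole embryo, fewer transcribing cells and less RNA per cell cannot be told apart.

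Some array properties moved with the groups. The mean of the 18 bacterial hybridisation control probe sets differed by -1.02 (clones minus IVF embryos) at the 1-cell stage, and by 1.27, 1.31 and 0.828 on the log2 scale at the 2-cell, 4-cell and 8-cell stages, with no overlap between the groups at any of these 4 stages. It was higher by 0.342 at the morula stage and lower in clones by 0.225 at the blastocyst stage, where the groups overlapped. Clone 8-cell replicate 4 had an Eif2s3y value of -5.25, at the level of the MII oocytes (-5.42 to -5.37), although Sertoli donors are male, so calls of the 10 genes that use the clone 8-cell group are given with and without it. The 1-cell clones 4 and 5 had the lowest 3′ minus 5′ signal of Actb in their group, down to -2.45. Oocyte marker genes (8 genes, zona pellucida and oocyte growth factor genes among them) averaged 6.28 to 6.48 in the MII oocytes and -3.05 to -2.87 in the cloned blastocysts. At the 1-cell stage they averaged 5.59 to 6.04 in clones and 5.04 to 5.38 in IVF embryos. At the 8-cell stage they averaged -1.33 to -0.89 in clones and 0.07 to 0.54 in IVF embryos, again without overlap. The kinds overlapped at the other stages. The part of maternal RNA in the differences below was not tested. Markers of the Sertoli donor cell (14 genes) averaged 0.29 to 0.62 in 1-cell clones and -0.01 to 0.19 in 1-cell IVF embryos, and 0.38 to 0.82 against 0.22 to 0.40 at the 2-cell stage. They averaged 0.08 to 0.51 against 0.22 to 0.33 at the 4-cell, 0.11 to 0.35 against 0.05 to 0.45 at the 8-cell, 0.03 to 0.41 against -0.20 to -0.12 at the morula, and 0.00 to 0.46 against -0.17 to 0.02 at the blastocyst stage. Over the 6 stages 1 of the 14 was higher in clones, at the blastocyst stage (Aard, 2.38 ± 0.43 SE, adjusted p = 0.0276), and 1 lower, at the 8-cell stage (Gata4, -4.27 ± 0.53, adjusted p = 0.00997). Among all genes 2.84% were higher at the blastocyst stage and 4.47% lower at the 8-cell stage. Of 9 cumulus cell and 8 sperm genes limma called 0 at any stage, with at most 2 of each at an unadjusted p under 0.05. The part of donor cell RNA and of the hybridisation controls in the differences below was not tested.

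The promoters shown are those of 5 of the 6 genes that passed the test between clones and IVF embryos at some stage, and the sixth, Enc1, is given by name only. Each is the 250 bases before the outermost transcription start among the gene's RefSeq promoter entries (build GRCm38.p6), 5′ to 3′ on the gene's own strand, with every CG dinucleotide in capitals. The Gab1 window lies at chr8:80880520-80880769 (minus strand), the Slc38a4 window at chr15:97055957-97056206 (minus strand), the Mbnl2 window at chr14:120275419-120275668 (plus strand), the Etv6 window at chr6:134035450-134035699 (plus strand) and the Jade1 window at chr3:41555484-41555733 (plus strand).
Gab1: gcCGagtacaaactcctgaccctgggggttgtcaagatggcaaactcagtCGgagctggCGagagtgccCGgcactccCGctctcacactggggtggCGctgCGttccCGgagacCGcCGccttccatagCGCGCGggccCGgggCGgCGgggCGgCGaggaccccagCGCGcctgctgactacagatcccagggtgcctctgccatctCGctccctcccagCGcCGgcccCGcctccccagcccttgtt
Slc38a4: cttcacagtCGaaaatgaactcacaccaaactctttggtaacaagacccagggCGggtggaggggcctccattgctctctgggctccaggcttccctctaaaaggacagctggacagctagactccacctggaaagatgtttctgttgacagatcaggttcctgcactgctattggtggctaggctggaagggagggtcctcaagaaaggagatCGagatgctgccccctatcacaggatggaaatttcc
Mbnl2: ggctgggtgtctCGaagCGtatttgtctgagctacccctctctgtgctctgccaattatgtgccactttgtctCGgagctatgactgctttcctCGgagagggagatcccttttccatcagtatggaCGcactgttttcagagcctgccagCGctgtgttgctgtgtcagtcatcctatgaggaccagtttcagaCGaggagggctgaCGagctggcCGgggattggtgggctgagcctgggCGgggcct
Etv6: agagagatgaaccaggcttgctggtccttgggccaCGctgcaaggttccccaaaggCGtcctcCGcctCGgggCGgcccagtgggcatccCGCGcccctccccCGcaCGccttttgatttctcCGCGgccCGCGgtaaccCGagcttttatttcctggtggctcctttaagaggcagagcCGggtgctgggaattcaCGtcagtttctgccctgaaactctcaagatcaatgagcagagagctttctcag
Jade1: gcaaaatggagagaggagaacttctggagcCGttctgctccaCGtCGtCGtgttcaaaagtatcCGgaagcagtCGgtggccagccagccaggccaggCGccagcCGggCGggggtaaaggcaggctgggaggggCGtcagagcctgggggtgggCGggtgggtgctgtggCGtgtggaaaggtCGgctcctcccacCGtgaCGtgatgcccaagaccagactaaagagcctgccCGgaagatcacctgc

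CG is its own reverse complement, so a count on 1 strand holds for both. The window of Gab1 held 24 CG dinucleotides, Etv6 and Jade1 16 each, Mbnl2 10 and Slc38a4 3. Over 32851 mouse promoter entries of the same length the median was 6, 92.1% held at least 1 CG, 12% held 24 or more and 71% held 3 or more. Among the 8 genes of the 10 with a promoter entry, the outermost windows of Tle3, Sfmbt2 and Runx1 held 17, 8 and 2. Of the 8, 6 were at or above the median, and Slc38a4 and Runx1 were below it. Later start sites differ from the outermost ones, as Runx1 has a second entry with 27 CG dinucleotides and Jade1 another with 35. These counts describe the windows and say nothing of methylation in these embryos.

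**Figure D1:**
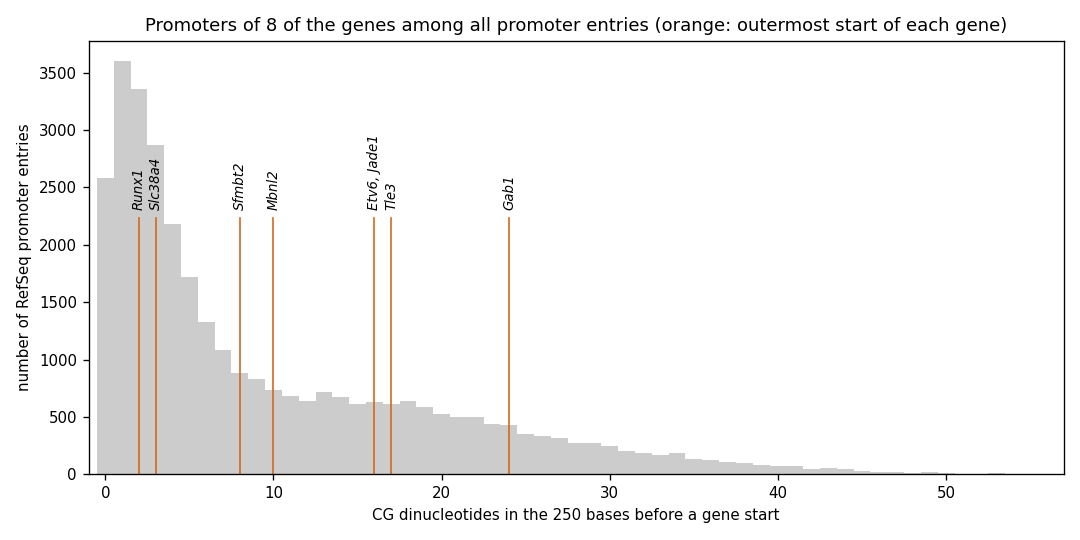
Number of CG dinucleotides in the 250 bases before a transcription start (x axis) against the number of RefSeq mouse promoter entries (y axis, grey bars). Orange lines mark the outermost start of 8 of the genes, from Runx1 at 2 to Gab1 at 24, around the median of 6.

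When clones were set against IVF embryos, 8 of 60 gene and stage pairs passed the threshold (limma, Benjamini-Hochberg adjusted p under 0.05 over all 18194 genes), all 8 of them higher in clones and 0 lower. They belonged to 6 of the 10 genes. Gab1 and Etv6 were higher at the 2-cell stage, Jade1 at the 4-cell stage, Mbnl2 at the 8-cell stage, and Gab1, Slc38a4, Mbnl2 and Enc1 at the blastocyst stage. Sfmbt2, Tle3, Smoc1 and Runx1 did not pass the test at any stage. With the hybridisation controls as a covariate, Gab1 (1.36, adjusted p = 0.0237) and Slc38a4 (1.71, adjusted p = 0.0202) in blastocysts kept their calls. The other 6 were lost. In blastocysts these were Mbnl2 (1.23, adjusted p = 0.0593) and Enc1 (1.82, 0.0646). The earlier ones were Gab1 (5.74, adjusted p = 0.835) and Etv6 (5.01, 0.821) at the 2-cell, Jade1 (1.77, 0.785) at the 4-cell and Mbnl2 (5.49, 0.371) at the 8-cell stage. At these earlier stages the controls did not overlap between clones and IVF embryos. The covariate can hardly be told apart from the group there, so the loss of the early calls was close to fixed in advance. A shared fit of all 51 arrays ended the 4 blastocyst calls (adjusted p = 0.221, 0.142, 0.726 and 0.582 for Gab1, Slc38a4, Mbnl2 and Enc1), and the mean of all probe sets of a gene ended those of Gab1 (2.47, adjusted p = 0.0545) and Etv6 (1.48, 0.159) at the 2-cell, Jade1 at the 4-cell (1.99, 0.234) and Mbnl2 at the blastocyst stage (0.61, 0.0736).

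Read against all genes, the early counts rest on few calls. At the 2-cell stage 2 of the 10 genes were higher, where 0.506% of all genes were higher and 1.86% lower. At the 4-cell stage 1 was higher against 0.462% of all genes, with 1.8% of all genes lower. At the 8-cell stage 1 was higher against 2.15%, with 4.47% of all genes lower. At the blastocyst stage 4 of 10 were higher, where 2.84% of all genes were higher and 3.34% lower. No gene of the 10 passed the limma test at the 1-cell stage, where 3.52% of all genes were higher and 2.79% lower, and 1 had an unadjusted p under 0.05. At the morula stage 0 passed, 4 had an unadjusted p under 0.05 with higher values in clones, and 0.0769% of all genes were higher and 0.0879% lower. The share of all genes at an unadjusted p under 0.05 was not counted in these fits.

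The median difference over the 10 genes was 0.10 at the 1-cell stage, 0.29 at the 2-cell, 1.21 at the 4-cell, 1.05 at the 8-cell, 0.73 at the morula and 1.01 at the blastocyst stage. The median over all genes lay between -0.01 and 0.04 at these stages. Between 7 and 9 of the 10 genes had a positive difference at each stage. The share of all genes with a positive difference was not counted, so these counts are not read as a result about the 10 genes.

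A looser criterion than the limma test asks whether all 5 clones lay above all 3 IVF embryos in a gene's main probe set. This held for 18 of the 60 pairs, and in 0 pairs did all clones lie below. At the 1-cell stage it held for 0 genes (7.54% of all genes, with 7.23% below), at the 2-cell stage for 3 (4.03%, with 7.89% below) and at the 4-cell stage for 4 (3.69%, with 7.37% below). At the morula stage it held for 3 (4.52%, with 3.99% below) and at the blastocyst stage for 5 (6.34%, with 9.94% below). The 8-cell stage stood apart, since 37.1% of all genes had every clone above every IVF embryo there and 11.2% every clone below. As a count, the 3 of 10 genes at that stage are no more than this background. The criterion counts gaps of any size, and those of the 3 genes were 2.59 (Mbnl2), 0.33 (Jade1) and 0.03 (Etv6). The array medians over all genes also did not overlap at this stage. They were 0.0163 to 0.034 in clones and -0.00922 to -0.00601 in IVF embryos. The part of this shift in the 37.1% was not tested. By gene, the separation held at 4 stages for Jade1, 3 for Gab1 and Etv6, 2 for Mbnl2, Enc1 and Tle3, 1 for Slc38a4 and Runx1, and 0 for Sfmbt2 and Smoc1. For Jade1, Etv6 and Mbnl2 this includes the 8-cell stage. It also includes narrow gaps, such as 0.01 for Runx1 morulae and 0.11 and 0.05 for Jade1 morulae and blastocysts. The share of all genes separated at several stages was not counted, so the tally is a description only.

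**Figure D2:**
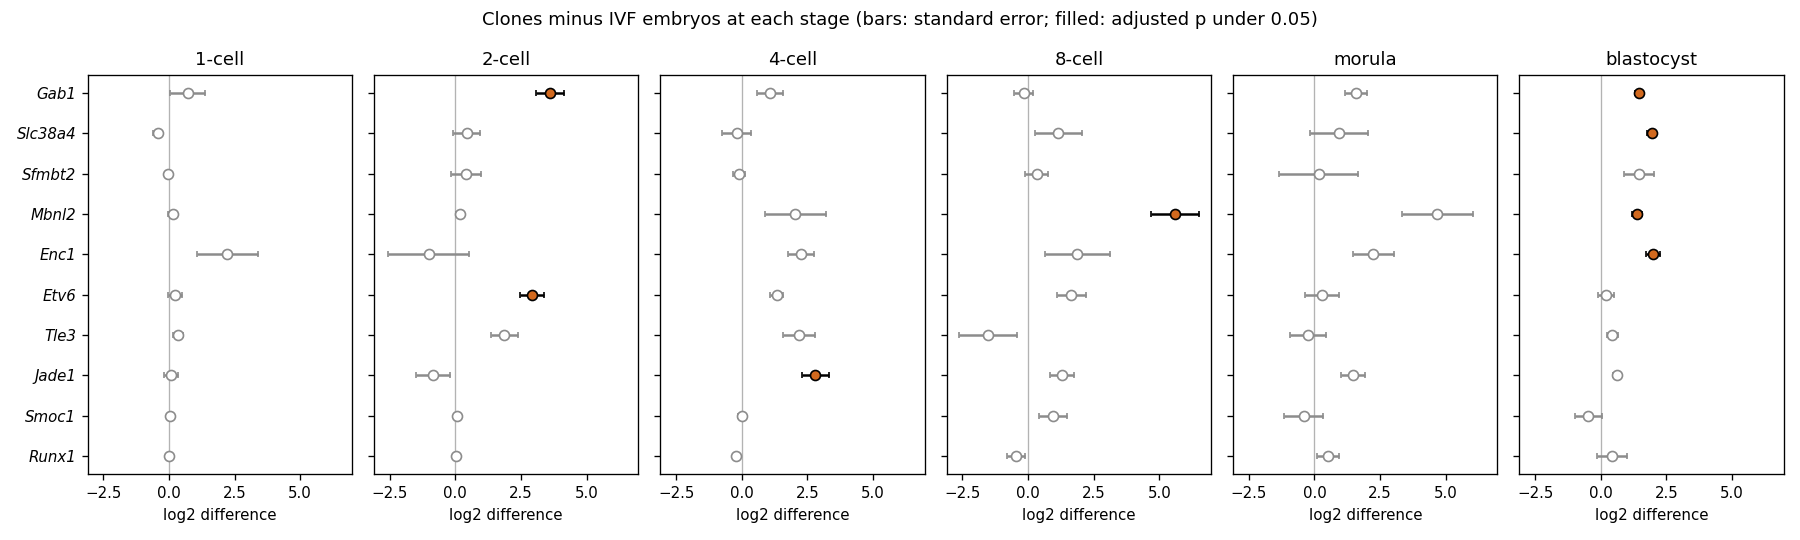
Difference of clones minus IVF embryos on the log2 scale (x axis, with its standard error) for each gene (rows) at each stage (panels). Filled points passed the adjusted p of 0.05, and these 8 points all lie to the right of 0, from 1.40 (Mbnl2, blastocyst) to 5.60 (Mbnl2, 8-cell).

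The stage of onset of each gene was taken as the first stage whose rise over the stage before passed the threshold within a series. In IVF embryos this was the 2-cell stage for Enc1, Etv6, Tle3 and Jade1, the 4-cell stage for Gab1 and Slc38a4, the morula for Sfmbt2 and Smoc1, and the blastocyst for Mbnl2 and Runx1. In clones it was the 2-cell stage for Gab1, Etv6, Tle3 and Jade1, the 4-cell stage for Mbnl2 and Enc1, the morula for Sfmbt2, and the blastocyst for Slc38a4, Smoc1 and Runx1. Both series start from the same 3 MII oocytes. An onset in this sense can be a return to an earlier level. For Enc1 the mean was -1.33 in MII oocytes, -4.68 in IVF 1-cell and -0.79 in IVF 2-cell embryos.

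Several of these onsets depended on the processing. In IVF embryos those of Enc1, Etv6 and Tle3 lost their call under quantile normalization (rises of 1.64, 1.20 and 0.51, adjusted p = 0.476, 0.311 and 0.749) and with the hybridisation controls as covariate (4.52, 0.19 and 3.10, adjusted p = 0.282, 0.962 and 0.0648). Those of Sfmbt2 and Smoc1 at the morula were lost with the covariate (2.23 and 1.33, adjusted p = 0.21 and 0.101), and that of Mbnl2 at the blastocyst both ways (3.19 and 3.94, adjusted p = 0.146 and 0.436). The 4-cell onset of Slc38a4 was lost with the mean of its probe sets (0.81, adjusted p = 0.343) and in a shared fit of 51 arrays (1.59, adjusted p = 0.147). In clones the 4-cell onset of Mbnl2 was lost with the mean of its probe sets (0.49, adjusted p = 0.136). The blastocyst onset of Smoc1 in clones was lost with the covariate (1.90, adjusted p = 0.0646). At the steps named here with the covariate, the hybridisation controls did not overlap between the stages. The covariate can hardly be told apart from the step there.

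A rise past the threshold in 1 series and not in the other does not show that the series differ, and that difference was tested separately as the change in clones minus the change in IVF embryos.

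The counts of rises by step stood as follows. From the MII oocyte to the 1-cell stage 0 of the 10 genes rose in either series, against 14.3% of all genes in IVF embryos and 11.8% in clones, and 0 had a rise at an unadjusted p under 0.05 in limma. Enc1 alone fell at that step, in IVF embryos, where 16.3% of all genes fell. From the 1-cell to the 2-cell stage 4 rose in IVF embryos (17.2% of all genes) and 4 in clones (16.8%). From the 2-cell to the 4-cell stage 2 rose in IVF embryos (10.5%) and 4 in clones (15.4%), while 1 fell in each series (13.3% of all genes fell in IVF embryos and 15% in clones). From the 4-cell to the 8-cell stage 1 rose in each (1.23% and 2.57%). At the morula 3 rose in IVF embryos (7.1%) and 1 in clones (10.2%), and 1 fell in clones (8.06%). At the blastocyst 6 rose in each (12.6% and 17.2%), and 1 fell in clones (17.9%).

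The change from one stage to the next differed between clones and IVF embryos for 4 of the genes. Gab1 and Etv6 did so from the 1-cell to the 2-cell stage, where 11.2% of all genes did, Jade1 from the 2-cell to the 4-cell stage (2.64%), and Tle3 from the 4-cell to the 8-cell stage (1.31%). The Gab1 call was lost with the covariate (1.69, adjusted p = 0.543). The hybridisation controls of the 1-cell and 2-cell groups did not overlap in either series, so the covariate can hardly be separated from this step. The Etv6 call was lost under quantile normalization (2.77, adjusted p = 0.0862) and with the mean of its probe sets (0.78, adjusted p = 0.621). At the last 2 steps limma called 0 of the 10 genes, against 5.66% and 1.62% of all genes, and 4 and 1 of them had an unadjusted p under 0.05.

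**Figure D3:**
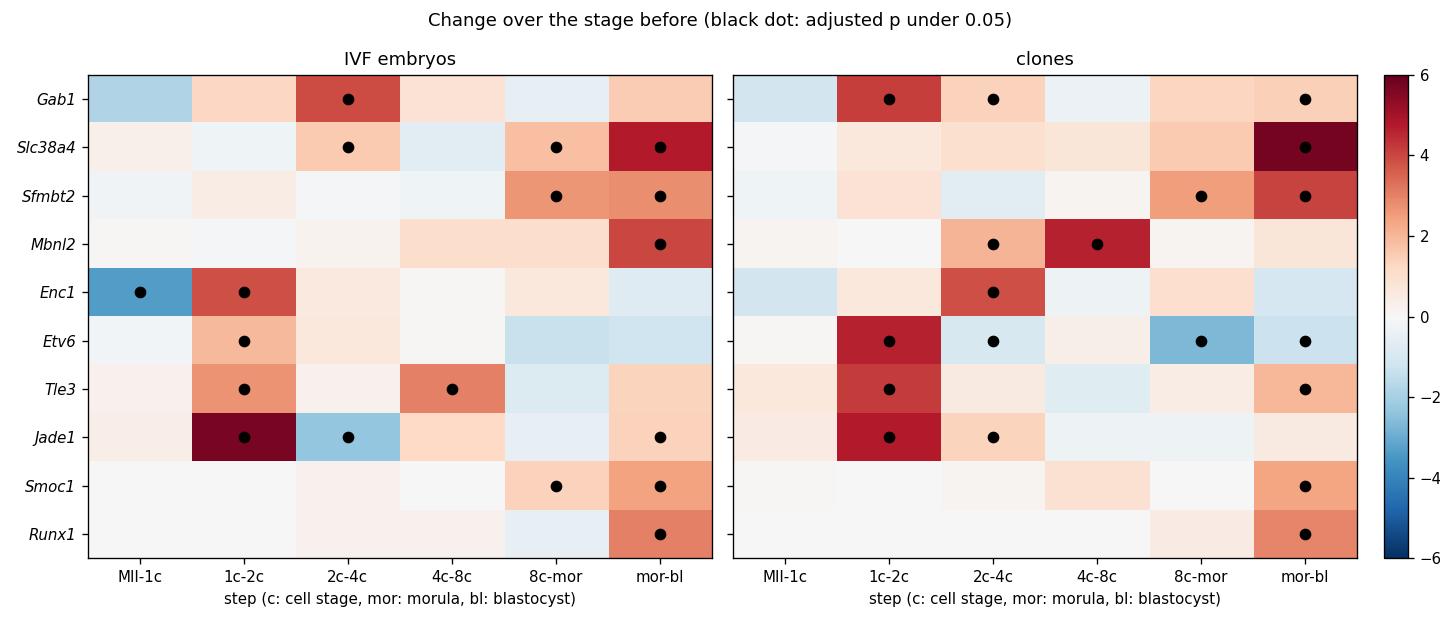
Log2 change over the stage before (colour, red for a rise and blue for a fall) for each gene (rows) at each step (columns) in IVF embryos (left) and clones (right), with a black dot where the adjusted p was under 0.05. Jade1 rose by 5.68 at the 1-cell to 2-cell step in IVF embryos, and Slc38a4 by 5.75 at the last step in clones.

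Etv6 (chr6:134035700-134270158), a transcriptional repressor of the ETS family, rose at the 2-cell stage in both kinds of embryo, and in its main probe set it rose further in clones. IVF 2-cell embryos had values of -0.51, 0.28 and 1.64, and 2-cell clones 3.81, 3.30, 3.54, 3.20 and 3.12, against -1.64 to -1.35 in IVF and -1.85 to -0.68 in cloned 1-cell embryos. Every 2-cell clone lay above every IVF embryo of that stage. The difference was 2.92 ± 0.47 (SE; 7.58-fold; adjusted p = 0.0343). The rise from the 1-cell stage was 1.93 ± 0.54 in IVF embryos (adjusted p = 0.0101) and 4.62 ± 0.36 in clones (adjusted p = 7.31e-12). The clone rise exceeded the IVF rise by 2.70 ± 0.64 (adjusted p = 0.00316). The second probe set went the other way, since its mean rose from -2.96 to 0.33 in IVF embryos and from -1.80 to 0.36 in clones.

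In the main probe set Etv6 then stayed apart through the 8-cell stage and closed up afterwards. At the 4-cell stage the clones had 2.14, 2.27, 2.84, 2.83 and 2.13 and the IVF embryos 0.96, 1.54 and 0.83, a separation without overlap that missed the threshold (1.33 ± 0.25, adjusted p = 0.0539). At the 8-cell stage the clones ran from 1.66 to 3.65 and the IVF embryos from 0.46 to 1.63, again without overlap (1.65 ± 0.56, adjusted p = 0.122). In clones Etv6 fell by 2.70 ± 0.36 to the morula (adjusted p = 3.04e-06; -2.89 ± 0.37 without clone 8-cell replicate 4) and by 1.27 ± 0.36 to the blastocyst (adjusted p = 0.00696). Cloned blastocysts had values of -1.41, -1.36, -0.18, -1.43 and -1.44 and IVF blastocysts -1.40, -1.23 and -1.45, so that both kinds returned to near the MII oocytes (-1.34 to -1.24) except for clone replicate 3. A fall from the 2-cell to the 4-cell stage in clones (-0.95 ± 0.36, adjusted p = 0.0426) turned positive under quantile normalization, at 0.35, and as the mean of both probe sets, at 0.29, and it lost its call in 7 of 10 fits that left out 1 embryo (-1.05 to -0.85).

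The 2-cell difference of Etv6 depended on the probe set, and its call was lost in most fits with 1 embryo left out. The second probe set of the gene, which follows the first over the 51 arrays with r = 0.70, gave 0.03 at the 2-cell stage, 1.67 at the 4-cell stage and 2.45 at the 8-cell stage. Leaving out 1 embryo at a time kept the difference between 2.43 and 3.51, and the call was lost in 7 of 8 cases, all but the one without IVF 2-cell replicate 3 (adjusted p up to 0.111). The IVF rise to the 2-cell stage was lost without that same embryo (1.34, adjusted p = 0.065). Between 2-cell clones and IVF embryos, such fits could also call far fewer of all genes, as few as 218 against 431 with all arrays.

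Gab1 (chr8:80764431-80880519), a docking protein that links receptor tyrosine kinases to downstream signalling, was already high in 2-cell clones when it was still low in IVF embryos. At the 2-cell stage IVF embryos had -4.79, -5.16 and -4.19, and clones -1.16, -1.29, 0.12, -0.93 and -2.24. The lowest clone lay above the highest IVF embryo. Clones were higher by 3.61 ± 0.52 (12.2-fold; adjusted p = 0.0249). The 1-cell values, -6.23, -6.21 and -5.50 in IVF embryos and -6.23, -6.24, -5.73, -3.67 and -4.47 in clones, overlapped, with the highest clones being replicates 4 and 5.

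In clones Gab1 rose by 4.17 ± 0.53 from the 1-cell to the 2-cell stage (adjusted p = 1.22e-07), where IVF embryos changed by 1.26 ± 0.72 (adjusted p = 0.216). The clone change was larger by 2.90 ± 0.80 (adjusted p = 0.0111), and by 3.70 ± 0.77 without 1-cell clones 4 and 5. IVF embryos rose at the next step instead, by 3.92 ± 0.72 (adjusted p = 0.000818), to -0.15, -0.26 and -1.98 at the 4-cell stage, within reach of the 4-cell clones at 0.00, 0.62, 0.16, -0.35 and 0.98. Clones rose by a further 1.38 ± 0.53 at this step (adjusted p = 0.0476), a call lost in 8 of 10 fits that left out 1 embryo (1.10 to 1.69). The 8-cell groups overlapped, at -0.19 to 0.33 in IVF embryos and -1.05 to 0.48 in clones.

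A second separation of Gab1 appeared late. Morulae had 0.06, -1.30 and 0.13 from IVF and 1.81, 0.97, 1.39, 1.32 and 0.52 from cloning, without overlap but short of the threshold (1.57 ± 0.42, adjusted p = 0.241). Blastocysts had 1.16, 1.11 and 1.22 from IVF and 2.41, 2.96, 2.44, 2.73 and 2.55 from cloning. The blastocyst groups were each tight and did not overlap, and the difference was 1.45 ± 0.13 (2.74-fold; adjusted p = 0.00454). The clone rise from the morula was 1.42 ± 0.53 (adjusted p = 0.0383), which was also lost in 8 of 10 such fits (1.25 to 1.57). A second Gab1 probe set gave 3.26 at the 2-cell and 1.39 at the blastocyst stage. Omitting 1 embryo at a time ended the 2-cell call in 6 of 8 cases, all but those without clone 2-cell replicate 3 or 5 (difference 3.31 to 3.90, adjusted p up to 0.0853), whereas the blastocyst call held in 8 of 8 (1.37 to 1.50).

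Tle3 (chr9:61372326-61418497), a corepressor of the Groucho family, rose at the 2-cell stage in both kinds of embryo. IVF embryos went from -4.31, -4.72 and -4.35 to -1.16, -2.37 and -1.78, a rise of 2.69 ± 0.48 (adjusted p = 0.00029). Clones went from -3.84, -3.75, -4.38, -4.15 and -4.35 to -1.0, 0.89, -0.32, 0.31 and 0.63, a rise of 4.20 ± 0.61 (adjusted p = 1.21e-06). All 2-cell clones lay above the 2-cell IVF embryos, with a difference of 1.87 ± 0.50 that did not pass (adjusted p = 0.127).

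IVF embryos made a second rise in Tle3 that clones did not match. At the 4-cell stage IVF embryos stood at -1.93, -0.80 and -1.84 and clones at 1.60, 0.02, 0.00, 1.84 and -0.14, without overlap (2.18 ± 0.60, adjusted p = 0.143). At the 8-cell stage IVF embryos stood at 1.97, 0.69 and 1.78 and clones at 0.35, -1.18, -1.98, 2.91 and -0.43. The 8-cell clones spanned the widest range of any Tle3 group, and replicate 4, the clone with the oocyte-like Eif2s3y value, was the highest of them. IVF embryos rose by 3.00 ± 0.48 at this step (adjusted p = 0.00558) and clones changed by -0.73 ± 0.61 (adjusted p = 0.66). The change in clones minus that in IVF embryos was -3.73 ± 0.90 (adjusted p = 0.0266), and -4.47 ± 0.74 without clone 8-cell replicate 4 (adjusted p = 0.000547). This call was lost in 5 of the 16 fits that each left out 1 embryo, those without IVF 4-cell replicate 1 or 3, IVF 8-cell replicate 1 or 3, or clone 8-cell replicate 3 (-3.58 to -3.25, adjusted p up to 0.0673). Blastocysts of both kinds were close, at 2.36, 1.64 and 1.85 from IVF and 2.44, 2.06, 2.17, 2.70 and 2.55 from cloning, and the clone rise to this stage passed (1.98 ± 0.61, adjusted p = 0.0129).

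Jade1 (chr3:41555734-41616864), a subunit that guides the Kat7 histone acetyltransferase complex, rose steeply at the 2-cell stage in both kinds of embryo and then parted. The rise was 5.68 ± 0.47 in IVF embryos (adjusted p = 9.38e-08) and 4.76 ± 0.40 in clones (adjusted p = 4.06e-11), from 1-cell values of -5.66 to -4.96 and -5.84 to -4.91. At the 2-cell stage IVF embryos had 0.62, -0.08 and 0.74 and clones 0.40, -1.50, 0.42, 0.31 and -1.72, which overlapped. From there Jade1 changed in IVF embryos by -2.33 ± 0.47 (adjusted p = 0.00193) and in clones by 1.32 ± 0.40 (adjusted p = 0.0116), the latter lost without clone 2-cell replicate 5 (1.00, adjusted p = 0.0539). The 2 changes differed by 3.65 ± 0.65 (adjusted p = 0.000627), and this held in 16 of 16 fits with 1 embryo left out (3.19 to 4.17).

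At the 4-cell stage the Jade1 groups were apart. IVF embryos had -0.86, -2.02 and -2.83 and clones 1.68, 0.24, 1.26, 0.81 and 0.54. No clone fell into the IVF range, and clones were higher by 2.81 ± 0.51 (7-fold; adjusted p = 0.0464). Leaving out 1 embryo ended the call in 7 of 8 cases, all but the one without IVF replicate 1, with the difference between 2.35 and 3.33 and the adjusted p up to 0.143. Of 3 further Jade1 probe sets, 2 gave 2.34 and 3.13 and the other -0.32, and in each of them the 4-cell groups overlapped.

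In the main probe set Jade1 stayed without overlap at the next 3 stages. The 8-cell clones ran from -0.20 to 1.85 and the IVF embryos from -0.85 to -0.53 (1.31 ± 0.46, adjusted p = 0.129). The cloned morulae ran from -0.18 to 0.61 and the IVF morulae from -2.20 to -0.29 (1.47 ± 0.45, adjusted p = 0.309). Cloned blastocysts had 0.43, 0.78, 1.09, 0.84 and 0.94 and IVF blastocysts 0.00, 0.38 and 0.24 (0.61 ± 0.16, adjusted p = 0.0775). None of these 3 differences passed the threshold, and the blastocyst difference passed without clone replicate 1 (0.71, adjusted p = 0.0316). In IVF embryos Jade1 rose by 1.38 ± 0.47 from the morula to the blastocyst (adjusted p = 0.0485), a call lost in 5 of 6 fits that left out 1 embryo (0.87 to 1.82).

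Enc1 (chr13:97241105-97253040), an actin-binding protein of the kelch family, was lower in IVF 1-cell embryos than in MII oocytes and varied widely among early clones in its main probe set. The MII oocytes had -3.23, -0.44 and -0.32, and IVF 1-cell embryos -3.84, -5.14 and -5.05, a change of -3.35 ± 1.10 (adjusted p = 0.0297). IVF embryos then rose by 3.88 ± 1.10 to 1.36, -2.47 and -1.26 at the 2-cell stage (adjusted p = 0.0104). The fall lost its call without MII oocyte replicate 2 or 3 or IVF 1-cell replicate 2 or 3 (-3.16 to -2.84), and the rise in 1 of 6, without IVF 2-cell replicate 1 (2.81, adjusted p = 0.0626).

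Clones of the 1-cell stage had Enc1 values of -5.86, -1.43, -1.59, -1.08 and -2.30. Replicate 1 lay below all IVF embryos of that stage and the other clones lay above all of them. With all 5 clones the difference was 2.23 ± 1.15 (adjusted p = 0.412), and without replicate 1 it was 3.08 (adjusted p = 0.0283). The 2-cell clones also had a single low embryo, with -5.90 in replicate 1 and 0.08, -1.54, -0.57 and -1.13 in the others. The second Enc1 probe set showed no such embryo, with clones at -1.24 to -0.56 at the 1-cell and -1.03 to -0.60 at the 2-cell stage. Clones rose at the 4-cell stage, by 3.86 ± 0.95 (adjusted p = 0.00221; 2.84 without clone 2-cell replicate 1), to 1.57, 1.62, 2.27, 1.95 and 2.84. All 4-cell clones lay above the IVF embryos, which had 0.00, 0.64 and -1.27 (2.26 ± 0.49, adjusted p = 0.0762).

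Enc1 stood higher again in cloned blastocysts. These had 1.69, 1.72, 2.00, 1.04 and 2.11, and IVF blastocysts -0.66, -0.04 and -0.11. The groups did not overlap, the difference was 1.98 ± 0.27 (3.95-fold; adjusted p = 0.013), and it passed with each embryo left out in turn (1.78 to 2.15). The second probe set gave 2.62. In the main probe set the 8-cell and morula groups overlapped, at differences of 1.88 ± 1.23 (adjusted p = 0.325) and 2.25 ± 0.78 (adjusted p = 0.377). In the second the morulae did not overlap (clones 2.22 to 3.29, IVF embryos -1.02 to 2.03).

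Mbnl2 (chr14:120275652-120431698), a muscleblind-like regulator of alternative splicing, had the largest difference of the 10 genes at any stage. Up to the 2-cell stage every oocyte and embryo of both kinds lay between -0.67 and 0.00. At the 4-cell stage 3 clones had left this level (2.46, 3.82 and 2.92) and 2 had not (-0.60 and -0.61), while IVF embryos had -0.58, -0.63 and -0.16. The groups overlapped (2.05 ± 1.17, adjusted p = 0.552), and the rise in clones was 2.06 ± 0.63 (adjusted p = 0.0123; 1.51 and adjusted p = 0.0568 without clone 4-cell replicate 3). In the second probe set the clone mean went only from -0.13 to 0.05 at this step and reached 3.31 at the 8-cell stage.

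At the 8-cell stage all clones were high in Mbnl2, with 5.68, 6.24, 6.34, 6.99 and 5.71. Among IVF embryos replicate 1 had 3.10 and the others -0.66 and -0.64, which is the level of the oocytes. The difference was 5.60 ± 0.92 (48.4-fold; adjusted p = 0.0231), and 5.40 ± 1.00 without clone replicate 4 (adjusted p = 0.046). The call was lost without IVF replicate 2 (4.97, adjusted p = 0.0748), IVF replicate 3 (4.98, adjusted p = 0.0703) or clone replicate 3 (5.56, adjusted p = 0.0537). The second Mbnl2 probe set gave 2.99, with overlap (clones 0.05 to 4.39, IVF embryos -0.32 to 1.37). The clone rise from the 4-cell stage was 4.60 ± 0.63 (adjusted p = 1.92e-05; 4.40 ± 0.67 without clone 8-cell replicate 4).

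IVF embryos reached Mbnl2 later. Their morulae had 4.82, -0.64 and 0.77, and cloned morulae 7.09, 6.66, 8.00, 4.70 and 5.28. The groups overlapped by a single embryo of each kind (4.69 ± 1.36, adjusted p = 0.28). In the second probe set the morulae did not overlap (clones 2.81 to 5.32, IVF embryos -0.36 to 2.71). The rise of the main probe set in IVF embryos passed at the blastocyst stage (4.01 ± 1.08, adjusted p = 0.0145). It lost its call without IVF morula replicate 2 or 3 (2.86 and 3.57). IVF blastocysts had 5.33, 5.87 and 5.78 and cloned blastocysts 7.07, 7.45, 6.99, 6.71 and 7.07, still without overlap (1.40 ± 0.19, 2.64-fold, adjusted p = 0.0128). Tested directly, the clone change exceeded the IVF change by 1.87 ± 1.19 at the 2-cell to 4-cell step (adjusted p = 0.582) and by 3.54 ± 1.19 at the 4-cell to 8-cell step (adjusted p = 0.154), so neither step was shown to differ between the series.

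Slc38a4 (chr15:96994816-97055956), a sodium-coupled transporter of neutral amino acids that is imprinted in placenta, reached its highest values in blastocysts. IVF blastocysts had 5.62, 6.21 and 6.42 and cloned blastocysts 8.16, 8.12, 8.08, 7.94 and 7.82. Clones were higher by 1.94 ± 0.18 (3.84-fold; adjusted p = 0.00536) without overlap, and the call held with each embryo left out (1.71 to 2.11). The second probe set of the gene gave 1.00. The rise from the morula was 4.76 ± 0.43 in IVF embryos (adjusted p = 1.36e-06) and 5.75 ± 0.67 in clones (adjusted p = 1.33e-07), and these rises did not differ past the threshold (0.99 ± 0.96, adjusted p = 0.988).

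Before the blastocyst the main probe set of Slc38a4 overlapped between clones and IVF embryos at every stage. The second did not at the 4-cell stage (clones -0.09 to 0.63, IVF embryos -0.20 to -0.17) or the 8-cell stage, where clones had 1.79 to 3.97 and IVF embryos -0.21 to 0.62, a difference of 2.46 against 1.15 in the main one. In the main probe set IVF embryos rose by 1.59 ± 0.43 from the 2-cell stage (-1.67, -1.41 and -1.28) to the 4-cell stage (0.73, 0.00 and -0.32; adjusted p = 0.0139), stood at -1.42, 0.00 and 0.00 at the 8-cell stage, and rose by 1.80 ± 0.43 to the morula (1.20, 0.60 and 2.18; adjusted p = 0.00851). The first of these rises lost its call without IVF 2-cell replicate 1 (1.48, adjusted p = 0.0517) or IVF 4-cell replicate 1 (1.29, adjusted p = 0.0698). Clones spread more, with morulae at 2.43, 1.33, 2.54, 5.09 and -0.03, and no step before the blastocyst passed in them. In the second probe set the clone mean went from 0.17 at the 4-cell to 2.53 at the 8-cell stage.

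Sfmbt2 (chr2:10370440-10595253), a Polycomb-group protein needed in trophoblast, lay near 0 in most embryos before the morula. Up to the 8-cell stage its values ran from -0.16 to 1.69 with no difference between clones and IVF embryos past the threshold. Morulae split within each kind, with 3.81, -0.01 and 4.03 from IVF and 2.66, -0.13, 4.35, 5.26 and 1.73 from cloning. A single embryo of each kind stayed near 0. The rise to the morula was 2.66 ± 0.78 in IVF embryos (adjusted p = 0.0264) and 2.49 ± 0.63 in clones (adjusted p = 0.00571; 2.42 ± 0.68 without clone 8-cell replicate 4).

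Sfmbt2 rose again to the blastocyst, by 2.78 ± 0.78 in IVF embryos (adjusted p = 0.0177) and 4.07 ± 0.63 in clones (adjusted p = 1.22e-05). IVF blastocysts had 5.96, 5.65 and 4.56 and clones 6.54, 7.34, 5.39, 7.59 and 7.35. The groups overlapped through clone replicate 3, and the difference of 1.45 ± 0.58 did not pass (adjusted p = 0.233). The second Sfmbt2 probe set gave 2.28 without overlap (clones 1.41 to 3.98, IVF blastocysts -0.05 to 1.28). In IVF embryos the morula rise lost its call in 5 of 6 fits with 1 embryo left out, all but the one without IVF morula replicate 2 (1.95 to 3.97). The blastocyst rise lost it without IVF blastocyst replicate 1 or 2 (2.49 and 2.65), and was 1.47 without IVF morula replicate 2.

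Smoc1 (chr12:81026808-81186414), a secreted calcium-binding protein of basement membranes with a single probe set, did not separate clones from IVF embryos at any stage. IVF embryos rose by 1.38 ± 0.37 to the morula (0.56, 1.17 and 2.31; adjusted p = 0.0156) and by 2.41 ± 0.37 to the blastocyst (4.49, 2.98 and 3.80; adjusted p = 0.000217). The morula rise lost its call without IVF 8-cell replicate 2 or 3 or IVF morula replicate 3 (0.90 to 1.32). Among clones 3 of the 8-cell embryos had already risen (1.39, 2.07 and 1.14) and 2 had not (-0.02 and 0.02), and the morulae were as mixed (2.48, 1.31, -0.14, 1.23 and -0.22). Cloned blastocysts had 3.62, 3.09, 2.19, 4.10 and 3.40, a rise of 2.35 ± 0.40 (adjusted p = 4.53e-05), and overlapped the IVF blastocysts (-0.47 ± 0.50, adjusted p = 0.698).

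Runx1 (chr16:92601466-92826074), a transcription factor of blood formation, rose at the blastocyst stage in both kinds of embryo and at no earlier step. Its main probe set lay between -0.05 and 0.64 up to the 4-cell stage and had a higher value in 1 IVF 8-cell embryo (1.47) and 1 cloned morula (1.77). IVF blastocysts had 2.76, 3.54 and 2.67 and clones 2.28, 2.49, 4.31, 4.03 and 4.03, which overlapped (0.44 ± 0.57, adjusted p = 0.761). The rise from the morula was 3.01 ± 0.32 in IVF embryos (adjusted p = 5.95e-06) and 2.93 ± 0.30 in clones (adjusted p = 9.34e-09), and both held with each embryo left out (2.73 to 3.17 and 2.71 to 3.25). All cloned morulae (1.77, 0.32, -0.00, 0.40 and 0.01) lay above the IVF morulae (-0.02, -0.02 and -0.01), but the groups were only 0.01 apart at their edges (0.52 ± 0.41, adjusted p = 0.825). The 5 further probe sets of the gene gave 1.49, 1.90, 0.39, -0.01 and 0.00 at the blastocyst stage. The first of these did not overlap there, at 1.48 to 2.88 in clones and 0.41 to 1.39 in IVF embryos. Nor did the next, at 0.83 to 3.31 in clones and -0.06 to 0.43 in IVF embryos, while the rest overlapped.

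**Figure D4:**
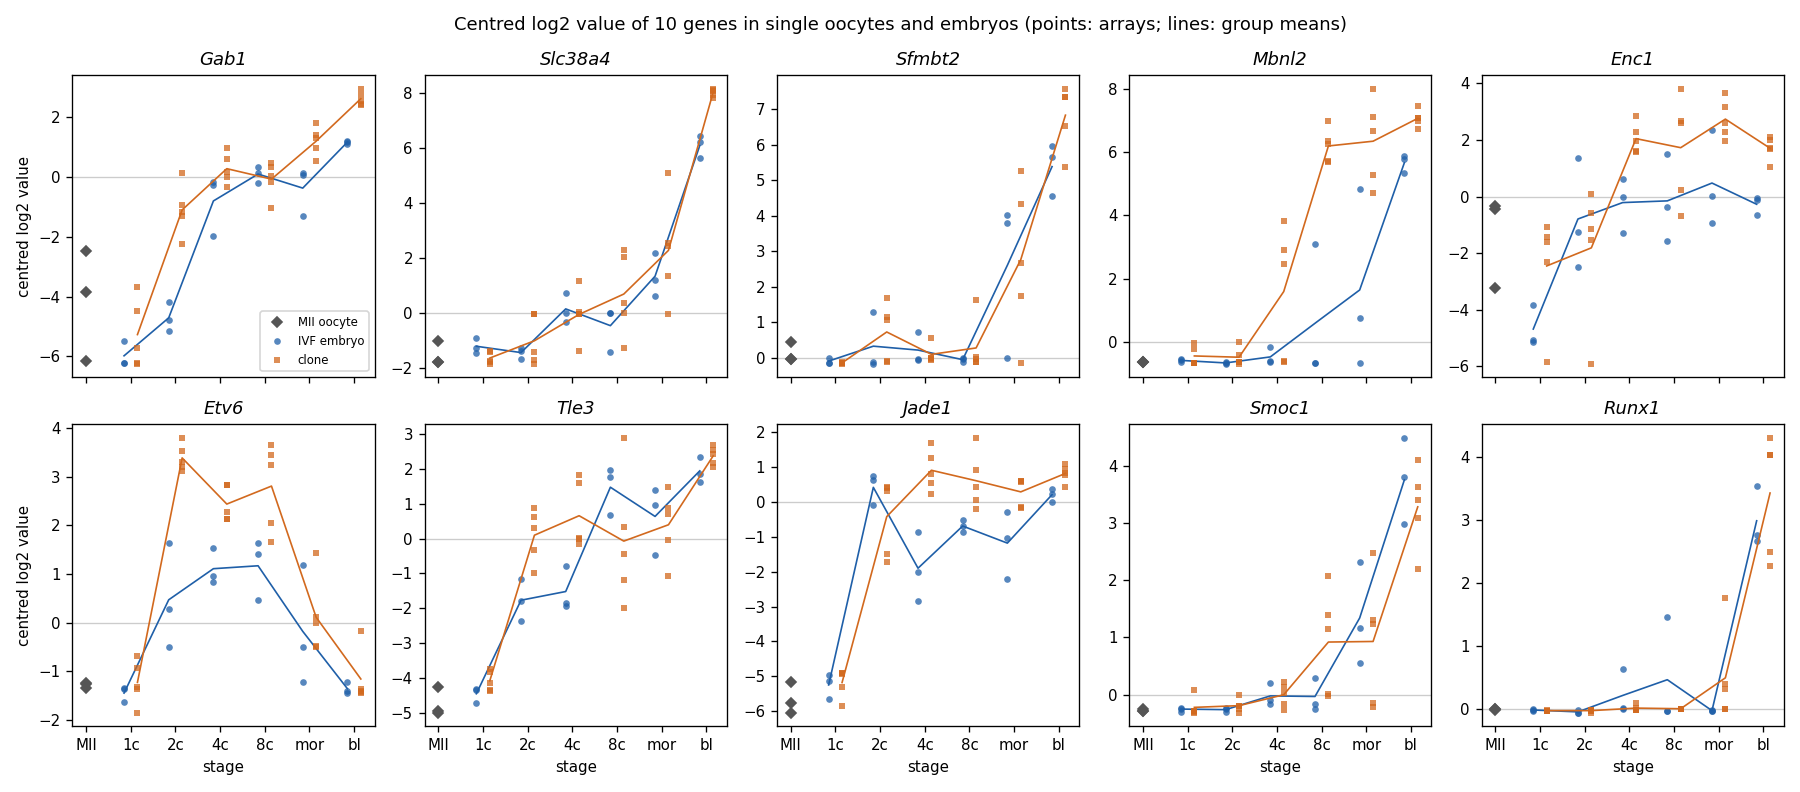
Centred log2 value (y axis, scaled per gene) of the 10 genes in MII oocytes (grey diamonds), IVF embryos (blue circles) and clones (orange squares) by stage (x axis), with 1 point per array and lines through the group means. Mbnl2 clones reach 5.68 to 6.99 at the 8-cell stage, where 2 IVF embryos are still at the oocyte level, and Slc38a4 clones reach 7.82 to 8.16 at the blastocyst stage, above IVF embryos at 5.62 to 6.42.

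The genes have 22 probe sets beside the main ones, most of them with little variation. The 8 with an SD of at least 1 over the arrays followed the main probe set with r between 0.67 and 0.98, as a description over arrays that share the stages. Their clone difference had the sign of the main probe set in 8 of 8 cases at the 2-cell and blastocyst stages, 7 of 8 at the 8-cell and morula stages and 6 of 8 at the 1-cell and 4-cell stages. The widest disagreements were Etv6 at the 2-cell stage (0.03 against 2.92) and the fourth Jade1 probe set at the 4-cell stage (-0.32 against 2.81).

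**Figure D5:**
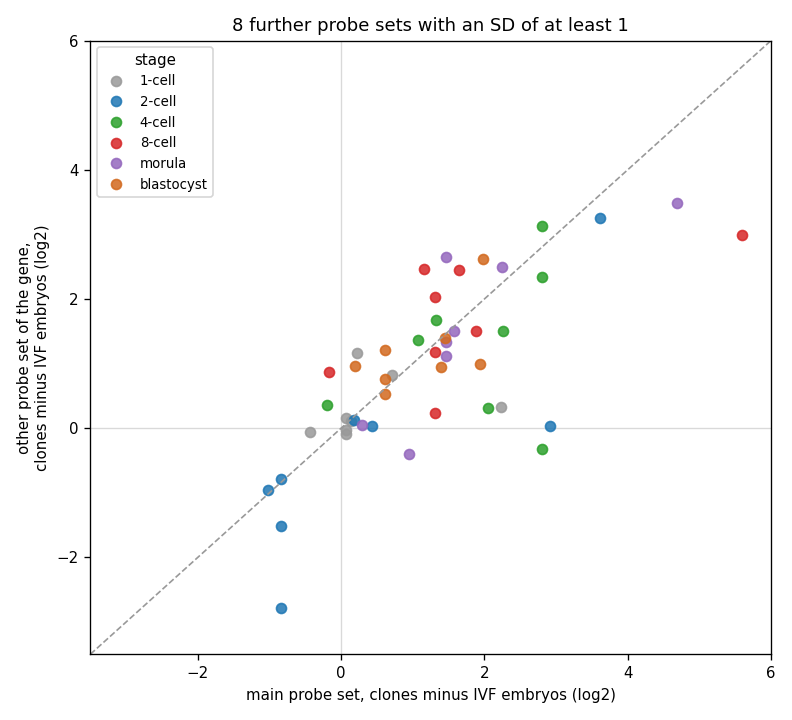
Clones minus IVF embryos in the main probe set of a gene (x axis, log2) against the same difference in a further probe set of that gene (y axis, log2), for the 8 further probe sets with an SD of at least 1, coloured by stage. The dashed line marks equal values, and points near 0 on the y axis at 2.92 and 2.81 on the x axis are Etv6 at the 2-cell and Jade1 at the 4-cell stage.

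The 10 genes lie on 10 different chromosomes, and they did not move as a block. Over the 13 group means, pairs of the genes correlated with r between -0.41 and 0.97 (median 0.66, positive in 40 of 45 pairs), which all share the course of development. After each group mean was removed, the same pairs correlated over the 30 clones with r between -0.42 and 0.43 (median 0.03, positive in 23 of 45 pairs). No clone was highest in more than 5 of the 10 genes of its stage.

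By their course over the 13 group means, the genes most like each member were Tra2a and Atp5k for Gab1 (r = 0.973 and 0.971), Gng10 and Jam2 for Slc38a4 (0.991 and 0.985), and Atp12a and Dusp3 for Sfmbt2 (0.992 and 0.991). Mbnl2 was closest to Hsd17b11 and Zfp362 (0.984 and 0.954), and Enc1 to Mapkapk3 and Spint2 (0.951 and 0.919). Etv6 was closest to Icam1 and Cand2 (0.969 and 0.939), Tle3 to Dgka and Leprotl1 (0.972 and 0.965), and Jade1 to Mcts2 and Elovl6 (0.970 and 0.969). Smoc1 was closest to Pak6 and Rhoc (0.988 and 0.981) and Runx1 to Inava and Wnt7b (0.997 and 0.993). These are descriptions over 13 points.

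Genes of the H3K27 methylation machinery (13 genes of the Polycomb complex and the demethylases) were set beside the members. Ezh2, the main methyltransferase of the complex, was lower in 4-cell clones (-1.87 ± 0.17, adjusted p = 0.00678), and was the only one of the 13 past the threshold there. Ezh1, its paralog, was lower in 8-cell clones (-2.05 ± 0.15, adjusted p = 0.0017) and cloned blastocysts (-0.95 ± 0.14, adjusted p = 0.0178), and Phf1, an accessory subunit, was lower in blastocysts (-0.71 ± 0.11, adjusted p = 0.016). Jarid2, a cofactor, was higher in 1-cell clones (1.19 ± 0.16, adjusted p = 0.0112). Among all genes 1.8% were lower in clones at the 4-cell, 4.47% at the 8-cell and 3.34% at the blastocyst stage. At the 1-cell stage 3.52% were higher. At the 2-cell and morula stages limma called 0 of the 13, and 3 and 1 had an unadjusted p under 0.05 with lower values. The median over the 13 was 0.35, -0.10, -0.39, -0.35, -0.37 and -0.31 from the 1-cell to the blastocyst stage.

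A list of 11 other candidate genes for the same kind of imprint was also counted. At the blastocyst stage 4 of 11 were higher in clones and 1 lower, where 2.84% of all genes were higher and 3.34% lower. The higher ones were Rbms1, an RNA-binding protein (1.60 ± 0.19, adjusted p = 0.00911), Epas1, a hypoxia-inducible transcription factor (1.74 ± 0.25, adjusted p = 0.0145), Gramd1b, a sterol transporter (1.22 ± 0.21, adjusted p = 0.0249), and Bbx, an HMG-box protein (1.86 ± 0.32, adjusted p = 0.0254). The lower one was Otx2, a homeobox factor (-2.56 ± 0.57, adjusted p = 0.0488), and it and Bbx were named after their values were seen. At the other 5 stages limma called 0 of 11. An unadjusted p under 0.05 was found in 0 at the 1-cell, 2-cell and 4-cell stages, 6 at the 8-cell and 3 at the morula stage, all higher in clones. The share of all genes at that p was not counted. The 37.1% of all genes with every clone above every IVF embryo at the 8-cell stage follow another criterion. They give no background for the counts at that p. The median difference over the 11 genes was 1.32 at the 4-cell, 0.85 at the 8-cell and 0.32 at the morula stage, and 0.01 at the blastocyst stage.

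Markers of the lineages of the blastocyst were measured beside the blastocyst results. The 8 trophectoderm genes averaged 4.75 to 4.86 in IVF and 4.71 to 4.98 in cloned blastocysts, with 0 called by limma and 1 at an unadjusted p under 0.05. The 6 genes of the inner cell mass averaged 2.82 to 3.00 in IVF and 1.98 to 2.89 in cloned blastocysts, with Gata6 higher in clones (0.73 ± 0.14, adjusted p = 0.0303). Among all genes 2.84% were higher in cloned blastocysts. The median difference of the 6 genes was -0.16, and 2 of the 6 were lower in clones at an unadjusted p under 0.05. The part of cell numbers in the blastocyst differences of Gab1, Slc38a4, Mbnl2 and Enc1 was not tested.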

How the data were processed

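Single oocytes and embryos were hybridised 1 per array to 51 Affymetrix arrays after 2-cycle amplification, per the labels. The deposited values are log2 values made by the authors with RMA, per the submitters' processing notes (version not given in the sources used here). The values themselves show that each probe set was centred: 94.3% of the 45101 probe sets have exactly 1 array at 0. Detection calls were not used here, and signal over background is unknown. Of the probe sets, 34958 had 1 gene symbol on the platform annotation, 932 several, 9211 none, and 64 were controls. Differences were tested with limma 3.58.1 (lmFit and eBayes, R 4.3.3) with Benjamini-Hochberg adjustment over 18194 genes and a threshold of 0.05. Clones and IVF embryos were fitted per stage on 8 arrays, each series of stages with the oocytes on 21 and 33 arrays, and the difference between series on 51. The fits were tested on simulated data. All 10 members are named at every stage. Other lists are given by counts with up to 3 genes of smallest adjusted p, and the 2 genes most like a member are those of highest Pearson r over 13 group means. Counts at an unadjusted p under 0.05 stand beside the calls, and the share of all genes at that p in the main fits was not counted. The members and lists were chosen with earlier results of these data known. Labels call the samples biological replicates, and p-values measure the spread between single embryos. Same-numbered embryos of the 2 kinds did not deviate together (r -0.204 to 0.102), so numbers were not treated as pairs. Alternatives were median centring, quantile normalization, a 30% filter on SD, the mean of all probe sets, hybridisation controls as a covariate, a replicate block, 1 fit of 51 arrays, leaving out each array, and, chosen after seeing the data, leaving out 1-cell clones 4 and 5. Positions and promoters are RefSeq's, build GRCm38.p6.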

Additional observations from a re-analysis of the deposited data

Results flagged for a closer look

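In 4 cases the change of a gene from one stage to the next differed between clones and IVF embryos. These were Gab1 (2.90) and Etv6 (2.70) from the 1-cell to the 2-cell stage, Jade1 (3.65) from the 2-cell to the 4-cell stage, and Tle3 (-3.73) from the 4-cell to the 8-cell stage, each as the log2 change in clones minus that in IVF embryos. Among all genes the change differed for 11.2% at the 1-cell to 2-cell step. It did so for 2.64% at the 2-cell to 4-cell step and 1.31% at the 4-cell to 8-cell step. The Gab1 call was lost with the hybridisation covariate. The Etv6 call was lost under quantile normalization and with the mean of its probe sets. The Tle3 call was lost in 5 of 16 fits that left out 1 embryo. The second Etv6 probe set had the larger rise in IVF embryos.

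Among the 60 clone groups of 5 embryos, 8 held an embryo far from the other 4 by Dixon's criterion, which flags about 1 in 20 groups by chance. For Enc1, replicate 1 was lowest at the 1-cell stage (-5.86) and at the 2-cell stage (-5.90), in the main probe set and not in the second. For Sfmbt2, the highest embryo was replicate 4 at the 4-cell stage (0.57) and replicate 2 at the 8-cell stage (1.63). Cloned blastocyst 3 was highest in Etv6 (-0.18), and 1-cell clone 4 was highest in Smoc1 (0.08). For Runx1, replicate 3 was lowest at the 2-cell stage (-0.05), a gap of a few hundredths, and replicate 1 was highest at the morula stage (1.77). Replicate numbers count different embryos at each stage.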

How the results depend on the processing

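Of the 8 gene and stage pairs higher in clones than in IVF embryos, 0 reversed under any alternative run. All 8 stayed past the threshold under quantile normalization and with the 30% of genes of lowest SD left out. Median centring ended 1 call (Jade1 at the 4-cell stage, 2.80, adjusted p = 0.051), the mean of all probe sets and 1 fit of all 51 arrays 4 each, and the hybridisation covariate 6. With that covariate limma called 0 of all genes at the 2-cell and 4-cell stages (431 and 412 without it), where 869 and 1439 had an unadjusted p under 0.05. It called 17 at the 8-cell stage (1204 without it). The controls did not overlap between clones and IVF embryos at these stages, so the covariate could hardly be separated from the group there. The fall of Etv6 in clones from the 2-cell to the 4-cell stage reversed, to 0.35 under quantile normalization and 0.29 as the mean of probe sets. The cause of these changes was not tested.

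With replicate numbers as a block, the replicate block ended all 8 calls between clones and IVF embryos, leaving 0 at the 2-cell, 4-cell, 8-cell and blastocyst stages. It ended 0 of 18 calls in the IVF series, 2 of 19 in the clone series and 0 of 4 differences between series. Same-numbered embryos did not deviate together (r -0.204 to 0.102), so they share only a number. At the 2-cell, 4-cell, 8-cell and blastocyst stages the block also left 0 of all genes called between clones and IVF embryos. Each stage has 8 arrays, and replicates 4 and 5 are clones alone, so little remained to estimate the spread from. The loss of the 8 calls was therefore close to fixed by the design.

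The number of the 10 genes past the threshold moved by over 1.5 times as follows. Between clones and IVF embryos, 2 at the 2-cell stage became 0 with the mean of probe sets or the covariate. The 1 at the 4-cell stage became 0 under median centring, the mean of probe sets or the covariate, 3 with the SD filter and 2 in 1 fit of all arrays. The 1 at the 8-cell stage became 2 with the mean of probe sets, 0 with the covariate and 3 in 1 fit. At the morula 0 became 1 in 1 fit, and at the blastocyst 4 became 2 with the covariate and 0 in 1 fit. In IVF embryos the 1 from oocyte to 1-cell became 0 under quantile normalization, the mean of probe sets or the covariate, and 2 with the SD filter or 1 fit. The 4 from 1-cell to 2-cell became 1 under quantile normalization or the covariate, which also took 3 at the morula to 0 and 6 at the blastocyst to 2. In clones the mean of probe sets took 5 from 2-cell to 4-cell to 1 and 1 from 4-cell to 8-cell to 2, and the covariate 7 at the blastocyst to 3. Without 1-cell clones 4 and 5, chosen after seeing the data, 0 from oocyte to 1-cell became 1. The 2 differences between series from 1-cell to 2-cell became 1 under quantile normalization, the mean of probe sets or the covariate.

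Leaving out 1 array gave 0 to 1 at the 1-cell, 2-cell, 4-cell and 8-cell stages between clones and IVF embryos, and 4 to 5 at the blastocyst. It gave 0 to 1 from oocyte to 1-cell in either series, 1 to 4 from 8-cell to morula in IVF embryos, and 3 to 5 from 2-cell to 4-cell in clones. The differences between series numbered 1 to 2 from 2-cell to 4-cell, and 0 to 1 from 4-cell to 8-cell and from morula to blastocyst.

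Among all genes, 1 fit of the 51 arrays gave 1955, 1915, 1549, 3787, 608 and 535 calls from the 1-cell to the blastocyst stage, against 1148, 431, 412, 1204, 30 and 1125 per stage. The block gave 37 at the 1-cell and 0 at the 5 later stages, where 1942, 2024, 3420, 1730 and 2872 had an unadjusted p under 0.05. The covariate gave 533, 7 and 340 at the 1-cell, morula and blastocyst stages. The SD filter gave 686 at the 2-cell and 120 at the morula stage, and quantile normalization 51 at the morula.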
